A study of Mus musculus with 4 samples.

Results

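The genes described here are 10 members of the TREM2 and Fc receptor pathway of phagocytes, of 52636 genes measured. They were chosen as a fixed list by function: Trem2 and its adaptor Tyrobp (also called DAP12), the Fc receptor chains Fcgr1, Fcgr2b, Fcgr3, Fcgr4 and Fcer1g, and the signalling enzymes Syk, Plcg2 and Inpp5d. All 10 matched a single Ensembl gene. RNA came from dissociated cells of the corpus callosum, the largest white matter tract of the forebrain, of mice labelled Mertk_KO. Every animal had received chow with 0.2% cuprizone, a copper chelator that kills oligodendrocytes, for 4 weeks, so no untreated and no wild-type library was compared. The groups were AnnexinV-positive cells, which expose phosphatidylserine as dying cells do, and AnnexinV-negative cells, described in the series as living, with 2 libraries each. The labels give neither the age of the mice nor whether libraries came from separate animals, so a p-value here measures only the spread between these libraries, which may be technical.

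TREM2 is a surface receptor of microglia and other macrophages for lipids and lipoproteins. Its own tail carries no signalling motif, and it signals through the partner protein DAP12. DAP12 and the Fc receptor gamma chain, the product of Fcer1g, carry an immunoreceptor tyrosine-based activation motif (ITAM), whose tyrosines are phosphorylated by Src family kinases and then bind the kinase SYK. SYK passes the signal on to phospholipase C gamma 2 (Plcg2), while the lipid phosphatase SHIP1 (Inpp5d) restrains it. In demyelinated white matter TREM2 is known for its part in the microglial response to myelin debris.

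The motif that gives the pathway its name can be read in the coding sequence. The following stretches, from GENCODE vM21 transcripts (GRCm38), are shown because these are the adaptors on which every receptor of the list except Fcgr2b depends. They are written in the sense of the mRNA, 5′ to 3′, with the codons of the paired tyrosines and of the leucine that follows each in capitals.
Tyrobp: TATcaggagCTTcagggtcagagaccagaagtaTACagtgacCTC
Fcer1g: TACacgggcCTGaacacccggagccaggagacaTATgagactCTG
Fcgr2b: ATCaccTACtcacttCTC
The Tyrobp stretch lies at chr7:30415670-30417382 on the plus strand and the Fcer1g stretch at chr1:171229889-171230072 on the minus strand, each 45 bases over 2 coding exons. The third line is the inhibitory counterpart (ITIM) of Fcgr2b, 18 bases in 1 coding exon at chr1:170961071-170961088 on the minus strand, with the codons of isoleucine, tyrosine and leucine in capitals. A search for tyrosine, 2 further codons and leucine or isoleucine, repeated after a gap of 6 to 8 codons, found the activating pattern in 2 of the 10 genes, Tyrobp and Fcer1g, and in 2.91% of 21725 genes with a complete coding transcript. The shorter inhibitory pattern is loose and also matched in Fcgr1, Fcgr4, Tyrobp and Fcer1g, so its match alone marks no function.

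Several of these genes also carry the PU box, GAGGAA or TTCCTC on the other strand, within the 250 bases before a transcription start. PU.1, the factor that binds such boxes, is an ETS factor of myeloid cells. In the RefSeq promoter table (GRCm38.p6), which has windows for 9 of the 10 genes and none for Tyrobp, 6 of 9 genes held the box, against 25.9% of all 27025 genes. The 60 bases before a start are shown for 5 of these 6 genes, as examples of where the box lies, in the direction of transcription and with the box in capitals.
Trem2: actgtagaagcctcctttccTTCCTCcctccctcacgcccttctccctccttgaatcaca
Fcgr1: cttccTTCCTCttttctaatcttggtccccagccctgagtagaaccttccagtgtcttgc
Fcgr3: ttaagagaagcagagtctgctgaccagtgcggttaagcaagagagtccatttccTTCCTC
Fcgr4: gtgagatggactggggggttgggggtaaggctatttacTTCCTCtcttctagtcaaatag
Inpp5d: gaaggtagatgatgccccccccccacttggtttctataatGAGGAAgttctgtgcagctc
These lie at chr17:48346341-48346400 (plus), chr3:96293970-96294029 (minus), chr1:171059404-171059463 (minus), chr1:171018866-171018925 (plus) and chr1:87620252-87620311 (plus). Syk, not shown, held a box that began 9 bases before one of its starts. The windows of Fcgr2b, Fcer1g and Plcg2 held no such box. A match describes the sequence and shows no binding.

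Levels are given as RPKM, read numbers scaled to gene length and library size, as deposited. Between 736 and 106532 reads lay behind a value of these 10 genes, so counting error was small beside their group differences on the deposited scale. It was not compared with the spread between libraries of a group. Mertk RNA was read in every library, at 62.6 and 53.6 RPKM with annexin V and 18.8 and 29.9 RPKM without. These gene-level values carry no information on single exons and so check no label. Of 10927 genes that reached 1 RPKM in at least 2 libraries, 3364 were higher and 1012 lower in AnnexinV-positive cells (limma, Benjamini-Hochberg adjusted p under 0.05). This split depended on the library scale: it was 1133 against 1184 after centring libraries on their median over the genes tested, 113 against 2091 on the TPM scale (values scaled to a common sum per library), and 13 against 5623 with each library centred on markers of homeostatic microglia. The median log2 fold change of all genes tested was 0.45, 0.13, -0.32 and -0.76 on these scales, in that order. Each change below is on the deposited scale, where a large share of genes was higher, unless another scale is named.

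Trem2 and Tyrobp were among the most abundant RNAs of every library and were higher in AnnexinV-positive cells. Trem2 (chromosome 17, 48346401 to 48354147, plus strand) was at 483 and 645 RPKM in AnnexinV-positive libraries 1 and 2, and at 188 and 209 RPKM in AnnexinV-negative libraries 1 and 2. Both AnnexinV-positive libraries lay above both AnnexinV-negative ones, and the group means, 564 ± 115 and 198 ± 14.7 RPKM (SD, n = 2 each), differed 2.84-fold. The log2 fold change, 1.49 (SE 0.22; adjusted p 0.00378 by limma), was the highest of the 10 genes and ranked at 145 of the 10927 tested. Tyrobp (chromosome 7, 30413760 to 30417585, plus strand) was at 1442 and 2194 RPKM against 683 and 630 RPKM. Ranked by RPKM among all genes, it stood at 16 and 11 with annexin V and at 13 and 16 without, so its place was similar in both groups. Tyrobp rose by 1.44 on the log2 scale (SE 0.26, limma adjusted p 0.00675), although its AnnexinV-positive libraries lay far apart (SD 532 RPKM around a mean of 1818, n = 2).

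**Figure D1:**
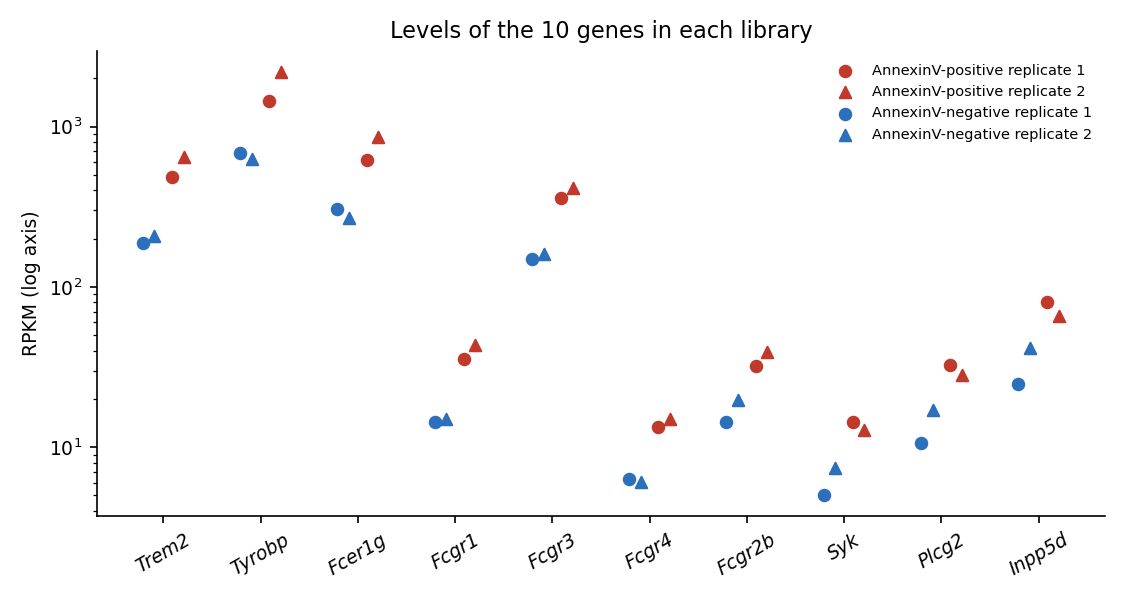
RPKM of the 10 genes on a log axis in each of the 4 libraries, AnnexinV-negative in blue and AnnexinV-positive in red, with circles for replicate 1 and triangles for replicate 2. For every gene both red symbols lie above both blue ones; levels run from about 5.05 RPKM for Syk in an AnnexinV-negative library to 2194 RPKM for Tyrobp in an AnnexinV-positive library.

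Among the Fc receptors, the shared signalling chain Fcer1g (chromosome 1, 171229572 to 171234365, minus strand) was the most abundant. It was at 615 and 866 RPKM in AnnexinV-positive and at 306 and 270 RPKM in AnnexinV-negative libraries. The groups did not overlap, and the log2 fold change was 1.34 (SE 0.23, limma adjusted p 0.00615). The low-affinity activating receptor Fcgr3 (chromosome 1, 171051174 to 171064935, minus strand) came next, at 358 and 413 against 150 and 161 RPKM. It had a narrow spread within groups, and rose by 1.31 (SE 0.19, limma adjusted p 0.00368).

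The other ligand-binding chains were expressed at a much lower level. Fcgr1 (chromosome 3, 96282909 to 96293969, minus strand), the high-affinity receptor for IgG, was at 35.6 and 43.6 RPKM against 14.4 and 15.0 RPKM. Its AnnexinV-negative libraries were nearly equal, and its change of 1.42 (SE 0.18) had the smallest adjusted p of the 10 genes (limma, 0.00290). Fcgr4 (chromosome 1, 171018920 to 171029761, plus strand), an activating receptor for certain IgG subclasses, was at 13.4 and 15.0 RPKM against 6.36 and 6.05 RPKM, a change of 1.18 (SE 0.18, limma adjusted p 0.00441). Fcgr2b (chromosome 1, 170958617 to 170976547, minus strand) is the inhibitory member, whose motif is shown above. It was at 31.9 and 39.1 RPKM against 14.3 and 19.6 RPKM and had the smallest change of the 10, 1.07 (SE 0.22, limma adjusted p 0.0109). Without AnnexinV-positive replicate 2 its adjusted p was 0.0589. Fcgr2b and Fcgr3 share part of their sequence: 166 runs of 50 bases occur in both, of 3708 runs in Fcgr2b and 1627 in Fcgr3. For Fcgr3 these are all the runs found in another gene, 10.2%. For Fcgr2b 10.7% of runs occur in transcripts of another gene, in Fcgr3 and in further genes. In addition, 155 exon bases of Fcgr2b overlap the antisense gene Gm38204, so both values are uncertain to that extent.

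Shares of the summed RPKM of the 4 ligand-binding receptors do not depend on the library scale. Fcgr3 made up 81.6% and 80.9% of this sum in AnnexinV-positive libraries and 81.0% and 79.8% in AnnexinV-negative libraries, and its ranges overlapped. Fcgr1 held 8.11% and 8.53% against 7.79% and 7.42%. These did not overlap, but the gap between the groups was smaller than the distance between the libraries of either group. Inhibitory Fcgr2b held 7.26% and 7.65% against 7.73% and 9.74%. These lay apart by little, and AnnexinV-negative replicate 2 stood above the other 3 libraries. The log2 ratio of the activating chains (Fcgr1, Fcgr3 and Fcgr4) to Fcgr2b was 3.67 and 3.59 against 3.58 and 3.21. The difference of the group means was 0.24, and 0.056 without AnnexinV-negative replicate 2. These shares and ratios are given as values, with no test.

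The enzymes below the receptors were higher too, with a wider spread among AnnexinV-negative libraries. Syk (chromosome 13, 52583173 to 52648792, plus strand), the kinase that binds the phosphorylated ITAM, was at 14.3 and 12.7 RPKM in AnnexinV-positive and at 5.05 and 7.37 RPKM in AnnexinV-negative libraries. Its log2 fold change was 1.13 (SE 0.23, limma adjusted p 0.0103). Plcg2 (chromosome 8, 117498291 to 117635142, plus strand), which makes the second messengers behind the calcium signal, was at 32.7 and 28.4 against 10.7 and 17.1 RPKM, a change of 1.17 (SE 0.25, limma adjusted p 0.0127). Inpp5d (chromosome 1, 87620312 to 87720507, plus strand), the phosphatase that removes the PI3 kinase product, was the most abundant of these enzymes. It was at 79.9 and 65.7 against 24.6 and 41.8 RPKM, and its change of 1.17 (SE 0.27) had the largest adjusted p of the 10 (limma, 0.0165). In all 3 enzymes AnnexinV-negative replicate 2 lay above replicate 1, and the groups still did not overlap. Without AnnexinV-positive replicate 1 the adjusted p of Inpp5d was 0.0512.

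In all, 10 of 10 genes passed the test as higher, where 30.8% of all genes tested were called higher and 9.26% lower. All 10 both passed as higher and had a log2 fold change of at least 1, as did 13.8% of genes tested. Their groups did not overlap in 10 of 10, against 60.9% of all genes with both AnnexinV-positive libraries above. The median change of the 10 was 1.24, against 0.45 for all genes tested. With AnnexinV-positive replicate 1 or 2 left out 9 of 10 passed (16% and 11.9% of all genes), and with AnnexinV-negative replicate 1 or 2 left out 10 of 10 (28.7% and 30.7%). In bulk libraries such as these, more cells of a type and more RNA per cell cannot be told apart.

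The call did not depend on the pseudocount (10 of 10 with 1 or 0.01, 31.7% and 30.3% of all genes), the intensity trend (10 of 10 without it, 27.9%) or a block for the replicate number (10 of 10, 22.4%; 44.8% with crossed numbers), and 9 of 10 passed without a filter (4.16%). It rested on the library scale. Centred on the median of the genes tested, 8 of 10 passed as higher (10.4% of all genes), with Plcg2 and Inpp5d at limma adjusted p 0.0567 and 0.0720. Centred on the median log ratio of the genes tested, 6 of 10 passed (6.53% of all genes), with Fcgr2b, Syk, Plcg2 and Inpp5d not passing. On the TPM scale 2 of 10 passed (1.03% of all genes): Trem2 at 0.72 (limma adjusted p 0.0393) and Fcgr1 at 0.65 (limma adjusted p 0.0412), while the other 8 had positive changes of 0.30 to 0.66. With libraries centred on 14 markers of homeostatic microglia, 0 of 10 passed in either direction, where 0.119% of genes were higher and 51.5% lower. On that scale Trem2 was at 0.29 (limma adjusted p 0.329), Tyrobp at 0.24, Fcgr1 at 0.22, Fcer1g at 0.14 and Fcgr3 at 0.11. Fcgr4 (-0.021), Plcg2 (-0.033), Inpp5d (-0.029), Syk (-0.070) and Fcgr2b (-0.13) turned to the negative side of 0.

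**Figure D2:**
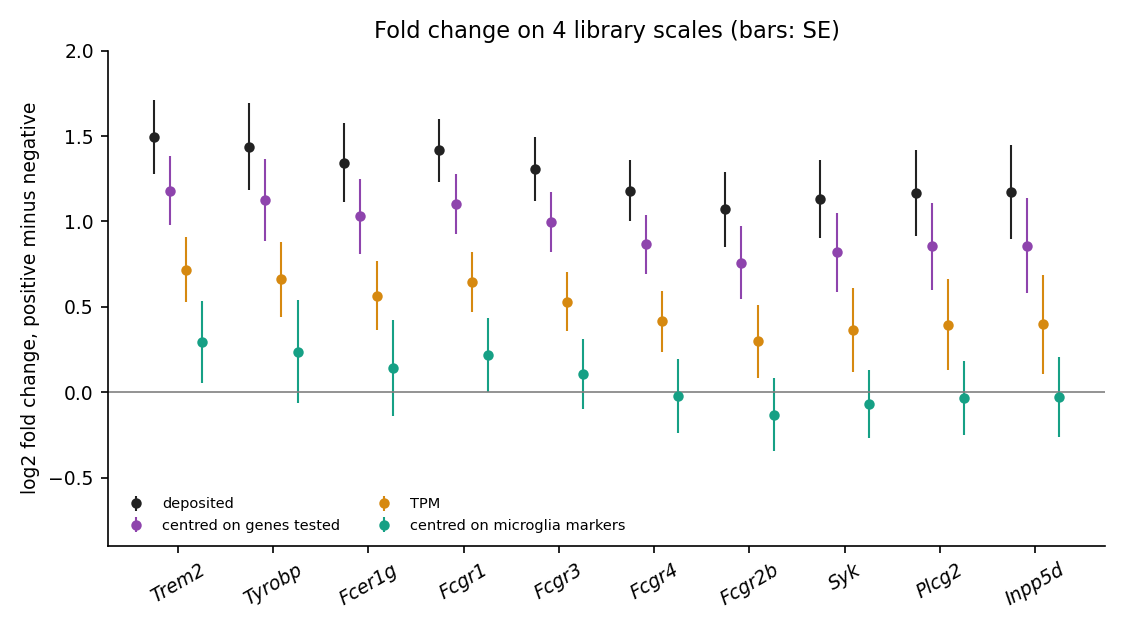
Log2 fold change of each gene, AnnexinV-positive minus AnnexinV-negative, with its standard error as a bar, on the deposited scale (black), centred on the median of genes tested (purple), on the TPM scale (orange) and centred on homeostatic microglia markers (green). The changes drop from 1.07 to 1.49 on the deposited scale to -0.13 to 0.29 on the microglia scale.

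Ratios within a library do not depend on its scale. Relative to Tyrobp, the groups overlapped for 7 of the 9 other genes and lay lower in AnnexinV-positive cells for Fcgr4 and Fcer1g, each by a margin far under the spread within a group. Of all other genes tested, 79.6% lay lower and 0.192% higher relative to Tyrobp without overlap. The log2 ratio of Trem2 to its adaptor was -1.58 and -1.77 in AnnexinV-positive and -1.86 and -1.59 in AnnexinV-negative libraries, so the groups overlapped for receptor over adaptor. Fcer1g relative to Tyrobp was at -1.23 and -1.34 against -1.16 and -1.22, a difference of -0.096 between the means. Syk relative to Tyrobp ranged more widely, at -6.66 and -7.43 against -7.08 and -6.42. Its group difference of -0.29 ran from -0.68 to 0.09 as each library was left out. Among the enzymes themselves the proportions were steadier: the log2 ratio of Plcg2 to Syk was 1.19 and 1.16 against 1.08 and 1.21, and that of Inpp5d to Syk 2.48 and 2.37 against 2.28 and 2.51.

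**Figure D3:**
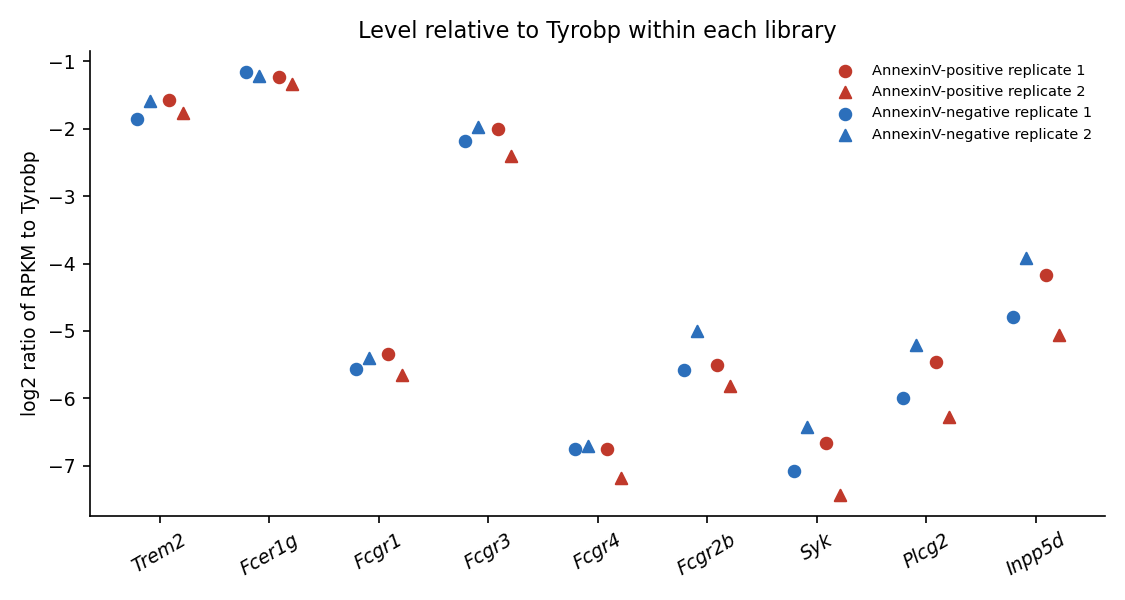
Log2 ratio of each gene's RPKM to that of Tyrobp within the same library, AnnexinV-negative in blue and AnnexinV-positive in red, with circles for replicate 1 and triangles for replicate 2. Red and blue symbols interleave for 7 of 9 genes; for Syk, Plcg2 and Inpp5d, AnnexinV-positive replicate 2 is lowest and AnnexinV-negative replicate 2 highest.

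The libraries of a group differed from each other along gene length. Replicate 2 minus replicate 1 of the AnnexinV-positive cells was 0.61 on the log2 scale for Tyrobp, 0.49 for Fcer1g and 0.42 for Trem2, but -0.17 for Syk, -0.20 for Plcg2 and -0.28 for Inpp5d. The gene lengths at which the deposited values give whole reads were 564, 748 and 1143 bases for the first 3 and 6027, 4298 and 4981 bases for the last 3. In the AnnexinV-negative cells the same difference was -0.12 for Tyrobp and -0.18 for Fcer1g, but 0.15 for Trem2, 0.54 for Syk, 0.67 for Plcg2 and 0.76 for Inpp5d. Genes tested were divided by exonic length in GENCODE vM21, which for Trem2 is 4946 bases, into 5 groups of similar size. The group of shortest genes (up to 2003 bases) had a median difference of 0.31 in AnnexinV-positive and -0.42 in AnnexinV-negative libraries, and the group of longest genes (from 7194 bases) of -0.13 and 0.25. The fold change between groups moved less with length, from a median of 0.56 in the shortest to 0.40 in the longest group. Tyrobp, Fcer1g, Fcgr3 and Fcgr4 fell in the group of shortest genes, with changes between groups of 1.44, 1.34, 1.31 and 1.18. The 3 enzymes had changes of 1.13 to 1.17. Trem2 had the largest change, 1.49. Its place depends on the length used: 4946 bases in GENCODE vM21 lie outside the group of shortest genes. The 1143 bases that give whole reads would lie within it. The part of length in these changes was not tested.

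**Figure D4:**
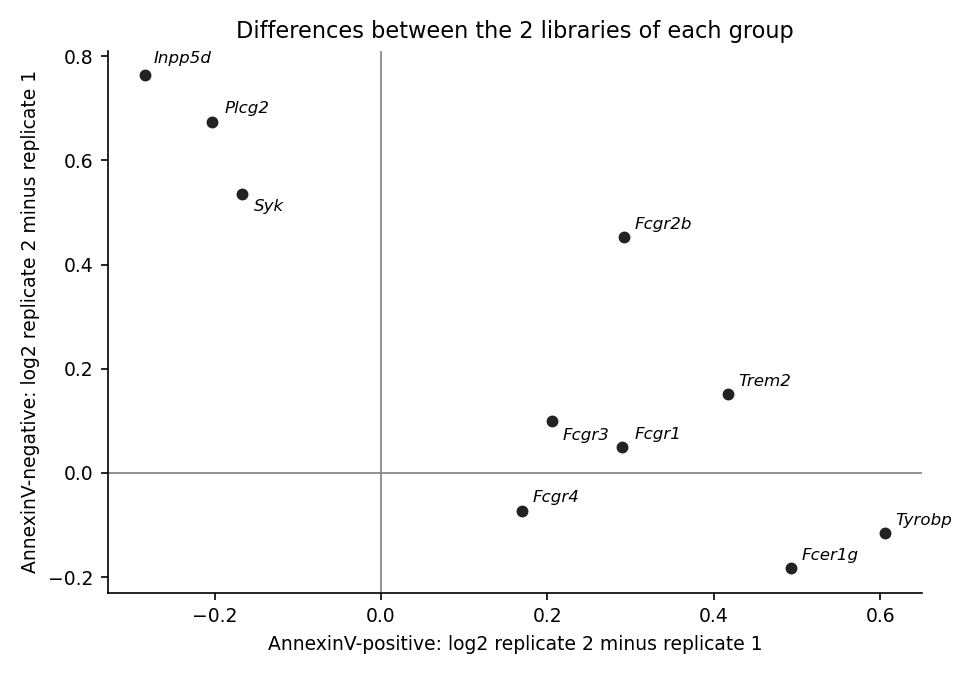
Each point is a gene of the list, placed by its log2 difference between replicates 2 and 1 of the AnnexinV-positive libraries (horizontal) and of the AnnexinV-negative libraries (vertical), in log2(RPKM + 0.1). Syk, Plcg2 and Inpp5d sit at the upper left, Tyrobp, Fcer1g and Fcgr4 (0.17 and -0.072) at the lower right, and Fcgr2b apart from both at 0.29 and 0.45.

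Most tested genes of ITAM signalling outside these 10 were higher too. Of 82 genes on 7 lists, 60 were tested, 45 were higher and 0 lower (limma; 30.8% and 9.26% of all genes tested), with a median change of 1.07. Without AnnexinV-negative replicate 2, 1 was lower, the lipoprotein Clu. On the TPM scale 5 were higher (Apoe, Clec5a, Blnk and Clec7a among them) and 3 lower (Fyn, Ptpn11 and Clu), where 1.03% and 19.1% of all genes were. Centred on the median of the genes tested, 32 were higher and 0 lower, where 10.4% and 10.8% of all genes were. Centred on microglia markers, 0 were higher and 11 lower, where 0.119% and 51.5% of all genes were.

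Of the other receptors that pair with DAP12 or the gamma chain or carry a single such tyrosine motif, 5 of 6 tested rose, with a median of 1.32. Clec5a, a lectin that signals through DAP12, rose by 1.53, from 5.72 ± 0.567 to 16.7 ± 1.78 RPKM (SD, n = 2 each; limma adjusted p 0.00243). The beta-glucan receptor Clec7a rose by 1.39 and the microglial lectin Siglech, which is also a microglia marker here, by 1.26. Trem1, a DAP12 partner best known from neutrophils and monocytes, ranged from 1.58 to 1.94 RPKM over the libraries, with a change of 0.22 (limma adjusted p 0.428). The remaining 10 of the 16 listed did not reach the RPKM minimum.

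Of 8 tested kinases of the Src and Tec families 5 rose, with a median of 1.10. Fgr (1.46) and Lyn (1.30), Src family kinases of myeloid cells, were among them. The widely expressed Fyn (-0.23), Src (0.33) and Yes1 (0.16) did not pass. Fyn was at 13.3 and 11.4 RPKM in AnnexinV-positive and 14.9 and 14.1 RPKM in AnnexinV-negative libraries, where Lyn was at 64.7 and 64.2 against 22.8 and 29.9 RPKM.

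Adaptors and exchange factors rose in 9 of 11 tested, with a median of 1.03. Among them were Blnk (1.40), a scaffold on which phospholipase C is activated, Lat2 (1.28) and Lcp2 (1.18). Gab2 (0.81, limma adjusted p 0.060) and Sos1 (-0.10) did not pass. In the branch of PI3 kinase, phospholipase, PKC and CARD9, 12 of 14 rose (30.8% of genes tested did), with a median of 1.07. Centred on the median of the genes tested 7 of 14 passed as higher (10.4% of all genes), and on the TPM scale 0 of 14 (1.03%). Prkcd (1.34), Prkcb (1.08) and Bcl10 (0.97) had the smallest p. Plcg1, the widely expressed relative of Plcg2, was at 0.40 (limma adjusted p 0.229), and the regulatory subunit Pik3r1 at 0.54 (limma adjusted p 0.0855).

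Negative regulators rose as well, in 9 of 13 tested, with a median of 1.10. Dok1 (1.30), an adaptor that restrains Ras, its relative Dok3 (1.21) and the phosphatase Ptpn6 (1.32) were among them. Ptpn11, the widely expressed relative of Ptpn6, was at -0.21 and did not pass, nor did Cbl (0.64) and Cblb (0.08). On the list of further receptors for immunoglobulin and related genes, 3 were tested. Fcgrt (0.93), the neonatal Fc receptor, and Fcrl1 (1.24), listed as a relative of Fc receptors, rose and Trim21 (0.55) did not pass. The call of Fcrl1 was lost without AnnexinV-positive replicate 2. Of 5 tested genes for TREM2 ligands and the enzymes that cut TREM2, 3 rose, among them Apoe by 1.59 and Adam17 by 0.95. Adam10 was at 0.61 (limma adjusted p 0.0711) and Clu at -0.59 (limma adjusted p 0.216). Adam17 lost its call without AnnexinV-positive replicate 1.

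**Figure D5:**
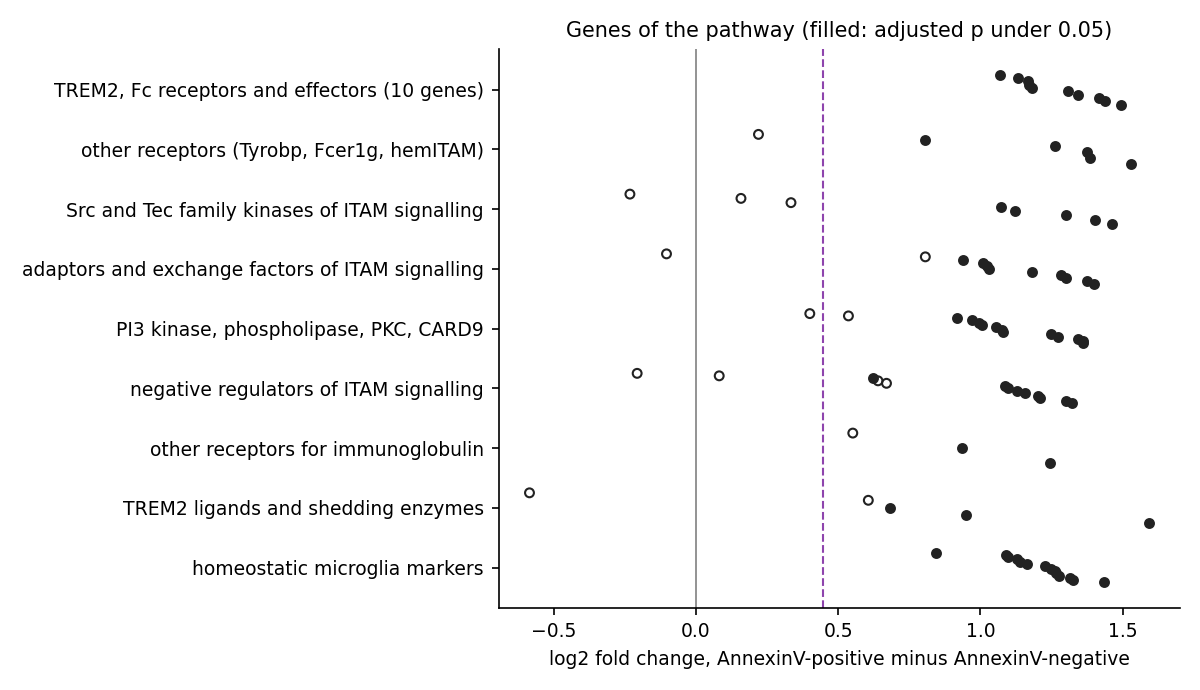
Log2 fold change, AnnexinV-positive minus AnnexinV-negative, of the tested genes of each list; filled points passed limma's adjusted p of 0.05 and open points did not. The dashed line is the median of all genes tested, 0.45, 45 of the 60 points of the 7 further lists are filled, and the homeostatic microglia markers in the bottom row run from 0.85 to 1.43.

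Markers of the cells that express these receptors were examined in the same libraries. Homeostatic microglia markers rose in 14 of 14, by a median of 1.24 (30.8% of all genes tested were higher). On the TPM scale 0 of 14 passed, at a median of 0.46, and centred on the median log ratio 11 of 14 did. Their summed level was 5616 to 5684 RPKM in AnnexinV-positive and 2197 to 2701 RPKM in AnnexinV-negative libraries. The 3 with the smallest p were Siglech (1.26), Selplg (1.33) and Sparc (1.27). Mature oligodendrocyte markers fell in 14 of 14 (9.26% of all genes tested were lower), by a median of -4.78. They summed to 34.9 to 47.0 against 530 to 967 RPKM. Mobp (-6.01), Tspan2 (-4.61) and Mog (-6.11) had the smallest p. Astrocyte markers fell in 6 of 7 tested, such as Fgfr3 (-1.53), Gja1 (-1.73) and Gjb6 (-1.39). Without a filter 3 of 7 passed as lower (2489 of 44826 genes did), and on the TPM scale 7 of 7 (19.1% of all genes). Endothelial markers fell in 4 of 5 tested, such as Esam (-2.86), Slco1a4 (-2.66) and Cldn5 (-2.90).

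Markers of other cells that can bear Fc receptors were examined next. Border macrophage markers summed to 17.6 RPKM in both AnnexinV-positive and to 6.94 and 5.64 RPKM in AnnexinV-negative libraries, and all 3 tested rose (Ms4a7 1.57, Pf4 1.19, Folr2 1.15), Folr2 not without AnnexinV-positive replicate 2. The untested border macrophage markers, at up to 1.83 RPKM, all lay higher in both AnnexinV-positive libraries, as did 60.9% of genes tested. Without a filter 6 of 8 border macrophage markers passed as higher (4.16% of all genes), and their changes ran from 0.97 to 2.57. Monocyte markers summed to 28.0 and 32.2 against 16.1 and 36.4 RPKM, and the groups overlapped. Most of this sum was Fn1 in every library, so the overlap reflects that gene. Fn1, the tested marker among them, was at 0.56 (limma adjusted p 0.353). The untested monocyte markers, at up to 2.09 RPKM, either overlapped between the groups or lay lower in both AnnexinV-positive libraries. Neutrophil markers summed to 1.08 and 1.09 against 16.1 and 6.99 RPKM, with S100a8 (-4.52) and S100a9 (-4.54) lower. NK or T cell markers summed to 2.12 to 3.23 against 2.95 to 7.07 RPKM, and Nkg7 was at -0.90 (limma adjusted p 0.324). Mast cell markers, all 5 under 1 RPKM in every library, summed to 0.25 to 0.30 against 0.36 to 1.29 RPKM. B cell markers summed to 73.6 to 80.3 against 33.3 to 37.1 RPKM, nearly all of it Ighm (1.17) and Cd79b (1.46), while Cd79a and Pax5 stayed under 1 RPKM in every library. The part of microglial and border macrophage RNA in the change of the 10 genes was not tested beyond the scale centred on microglia markers given above.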

How the data were processed

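Bulk RNA-seq libraries (TruSeq RNA v2, which does not keep strand) were made from AnnexinV-positive and AnnexinV-negative cells, per the labels' protocols, which do not say how the cells were separated. Reads were aligned with GSNAP to mm10, per the submitters' processing notes; for counter, annotation and filters, the method is not given in the sources used here. The files' header gives no unit. The deposited values were read as RPKM from the values themselves: divided by the worth of 1 read at each gene's exonic length in GENCODE vM21 (the same assembly), 79.6% to 83.6% of values under 100 reads were whole within 0.01. For each of the 10 genes a length was found at which reads were whole, within 0.00521, in all 4 libraries; it equalled that of GENCODE vM21 in 3 of 10. At a length of 1 kb, 1 read equals 0.00833 to 0.0116 RPKM.

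Symbols matched 52403 of 52636 genes. Values were taken as log2(RPKM + 0.1), genes at 1 RPKM or more in 2 libraries were kept (10927), and the groups were compared by limma (3.58.1, R 4.3.3), with its intensity trend and no covariate, adjusting p over all genes tested. Fold changes understate those of low genes. On simulated data for this comparison and these 10927 genes, 58% of 2-fold and 98% of 4-fold changes were recovered, with 12 false calls. The simulation changed few genes and drew independent noise for each. In the data many genes differed and replicates differed along gene length, so these shares may not carry over. Alternatives were other pseudocounts, no filter, other library scales, no trend, a replicate block and leaving out each library. The 10 genes and all lists were chosen with earlier results of these data known. Named were the 10 genes, the 3 of each list with the smallest p, and list genes needed to name a count of 5 or fewer; Mertk, Gm38204, Cd79a and Pax5 were named after their values were seen. Some list genes are counted but not reported here by name.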

Additional observations from a re-analysis of the deposited data

How the results depend on the processing

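The 10 genes kept their direction and their call with a pseudocount of 1 or 0.01 and without the intensity trend; without a filter Inpp5d lost its call and 9 of 10 passed. As libraries were left out, 9 to 10 passed. Over all genes, leaving out libraries gave 1297 to 3356 higher and 787 to 1060 lower, with the low counts of higher genes without AnnexinV-positive replicate 1 (1749) or 2 (1297); of the other pathway genes 34 to 48 were higher and 0 to 1 lower (Clu, without AnnexinV-negative replicate 2). Without a filter 1865 of 44826 genes were higher and 2489 lower. Scale mattered most. On the TPM scale 113 genes were higher and 2091 lower, 2 of the 10 genes passed, and 5 other pathway genes were higher and 3 lower. Centred on microglia markers, 13 genes were higher and 5623 lower, 0 of the 10 passed, and 0 other pathway genes were higher and 11 lower. Centred on library medians, 1133 genes were higher. With libraries centred on their median log ratio, an alternative added after seeing the data, 713 genes were higher, 6 of the 10 passed, and 18 other pathway genes were higher. Beyond the shift of all genes on each scale, the cause was not tested.

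Some log2 fold changes changed sign. Centred on microglia markers these were Fcgr2b (-0.13), Fcgr4 (-0.021), Syk (-0.070), Plcg2 (-0.033), Inpp5d (-0.029), Trem1 (-0.98), Src (-0.87), Yes1 (-1.04), Lcp2 (-0.018), Gab2 (-0.39), Prkcb (-0.12), Bcl10 (-0.23), Pik3r1 (-0.67), Plcg1 (-0.80), Cbl (-0.56), Cblb (-1.12), Fcgrt (-0.27), Trim21 (-0.65), Adam17 (-0.25), Adam10 (-0.60), Pf4 (-0.015), Folr2 (-0.047), Fn1 (-0.64) and Ighm (-0.034). On the TPM scale they were Trem1 (-0.54), Src (-0.42), Yes1 (-0.60), Pik3r1 (-0.23), Plcg1 (-0.37), Cbl (-0.12), Cblb (-0.68), Trim21 (-0.20), Adam10 (-0.17) and Fn1 (-0.21). On library medians they were Trem1 (-0.093), Yes1 (-0.15) and Cblb (-0.23), and on median log ratios Trem1 (-0.20), Src (-0.088), Yes1 (-0.26), Plcg1 (-0.022) and Cblb (-0.34). As each library was left out, the change crossed 0 for Cblb (from -0.30 to 0.47), Fn1 (from -0.25 to 1.38), Nkg7 (from -1.90 to 0.11), Sos1 (from -0.33 to 0.12) and Yes1 (from -0.34 to 0.66), with Sos1 at 0.0036 without AnnexinV-negative replicate 2.

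The labels give the groups the same replicate numbers, but the labels do not tie same-numbered libraries to an animal or day, and their deviations ran opposite (Pearson's r of -0.21 across 10927 genes, which are not independent). With the replicate block 2443 genes were higher and 957 lower, 10 of the 10 genes passed, and 42 other pathway genes were higher. With crossed numbers as a block, added after seeing the data, 4891 were higher and 1136 lower. Counting error was small beside the changes of these 10 genes on the deposited scale, and each group held only 2 libraries.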
